A study of Homo sapiens with 3 samples.

Results

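The bone morphogenetic protein (BMP) genes described here are 10 of the 60671 genes in the expression table: the ligands BMP2, BMP4 and BMP7, the decoy receptor BAMBI, the secreted antagonists NOG, CHRD and GREM1, and the target genes ID1, ID2 and ID3. They were chosen by name, and each name occurs once in the table. RNA was sequenced from 3 populations, with 1 library each. iOVCAR-3-OSKM cells came from OVCAR-3 after Sendai virus delivery of OCT4, SOX2, KLF4 and MYC, and were picked as Tra1-60-positive colonies, subcloned, and grown on mouse embryonic fibroblast feeder cells in a primate embryonic stem cell medium with bFGF. The column of this library carries a clone number of these cells, so the library is read here as that of a single clone. SP holds OVCAR-3 cells of the side population, sorted for the ability to pump out a dye. OVCAR-3 is the untreated parental line of high-grade serous ovarian cancer, which the other populations were derived from and which was cultured in serum-containing medium, with no feeder cells described. Transduction, cloning, medium and feeder cells differed together between iOVCAR-3-OSKM and OVCAR-3, so their parts in a difference cannot be told apart. Side population cells are obtained by dye staining and sorting, which is not described for the OVCAR-3 library. Cell population and handling therefore cannot be told apart between SP and OVCAR-3.

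BMPs are secreted ligands of the TGF-beta superfamily. They assemble type I receptors (BMPR1A, BMPR1B, ACVR1) with type II receptors (BMPR2, ACVR2A, ACVR2B) on the cell surface, and the type I kinase phosphorylates SMAD1, SMAD5 and SMAD9, which join SMAD4 and enter the nucleus. The ID genes are classical direct targets of these SMADs, and the ID proteins bind E proteins and keep them off DNA. Noggin (NOG), chordin (CHRD) and gremlin (GREM1) hold the ligands away from their receptors, while BAMBI is a receptor-like protein without a kinase domain that dampens the signal in the membrane. In human pluripotent stem cells, BMP signaling drives differentiation, including toward amnion-like and trophoblast-like fates, and ID genes respond to it.

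Values are TPM, a transcript level scaled for gene length and to the same total in every library, so the depth behind each value is unknown. The measure of change was the log2(TPM + 0.3) of one population minus that of the other, a scale that understates the changes of low genes. A gene counted as higher or lower past a size of 1. Single libraries give no replicate spread, so the text carries neither p-values nor errors. A gene was taken as measured if its 3 values averaged 0.3 TPM or more, and 9 of the 10 members met this. GREM1 did not reach this level, and BMP2 reached it only through iOVCAR-3-OSKM. The label of the transduced cells was checked on POU5F1, the gene of OCT4, which stood at 634 TPM in iOVCAR-3-OSKM, 3.65 TPM in SP and 2.05 TPM in OVCAR-3, although its pseudogenes and any transgene reads make the level uncertain. The ovarian markers PAX8 and KRT7 were high in all 3 libraries, with PAX8 at 556 TPM in iOVCAR-3-OSKM, 729 TPM in SP and 899.5 TPM in OVCAR-3.

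Sequences upstream of the transcription start are shown for BAMBI, the member with the largest difference among those detected in all 3 libraries, and for the ID genes, the shared readout of the pathway. They are the 250 bases before the start in RefSeq (GRCh38.p14), at chr10:28677271-28677520 on the plus strand for BAMBI, chr20:31605039-31605288 on the plus strand for ID1, chr2:8681806-8682055 on the plus strand for ID2 and chr1:23559502-23559751 on the minus strand for ID3. Capitals mark matches on either strand to GGCGCC, a GC-rich element that SMAD1 and SMAD5 bind, and to CAGAC, the SMAD binding element, which reads GTCTG on the other strand.
BAMBI: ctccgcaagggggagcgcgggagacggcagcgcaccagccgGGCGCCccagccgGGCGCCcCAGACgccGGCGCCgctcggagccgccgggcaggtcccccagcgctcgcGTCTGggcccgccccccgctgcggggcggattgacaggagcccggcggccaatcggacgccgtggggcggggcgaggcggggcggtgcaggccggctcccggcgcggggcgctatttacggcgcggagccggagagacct
ID1: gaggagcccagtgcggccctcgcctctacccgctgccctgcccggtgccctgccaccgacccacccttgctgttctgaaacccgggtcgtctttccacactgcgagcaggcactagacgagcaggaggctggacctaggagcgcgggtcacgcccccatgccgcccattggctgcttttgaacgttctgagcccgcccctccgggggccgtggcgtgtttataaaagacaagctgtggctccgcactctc
ID2: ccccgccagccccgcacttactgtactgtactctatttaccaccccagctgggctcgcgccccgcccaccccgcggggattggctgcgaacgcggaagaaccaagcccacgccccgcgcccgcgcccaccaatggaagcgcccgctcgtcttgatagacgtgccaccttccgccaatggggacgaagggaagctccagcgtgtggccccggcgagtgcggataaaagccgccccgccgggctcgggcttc
ID3: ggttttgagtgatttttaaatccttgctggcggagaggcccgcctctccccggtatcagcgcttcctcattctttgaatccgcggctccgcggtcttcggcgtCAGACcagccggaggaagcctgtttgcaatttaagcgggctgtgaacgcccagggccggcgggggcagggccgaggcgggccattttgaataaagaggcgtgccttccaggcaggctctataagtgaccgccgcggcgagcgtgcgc
BAMBI held 3 matches to GGCGCC and 2 to CAGAC, none of which overlapped, and the nearest to the start lay 140 bases upstream. ID3 held 1 match to CAGAC, and neither motif was found in these windows of ID1 and ID2. Sequence beyond the 250 bases was not searched, so a window without a match does not show that a gene lacks such elements. The windows depend on the RefSeq start used. That of ID2 lies inside the gene's span in the authors' table, from 8678845 to 8684461. In GENCODE release 29, BAMBI starts at 28677342, within its window, and ID3, on the minus strand, starts at 23559794, so the whole ID3 window lies inside that gene. Over 27305 promoters of the same length, 16.1% held GGCGCC, 37.8% held CAGAC and 0.52% held 3 or more copies of GGCGCC. The BAMBI window is 81.2% G and C, and among the 2636 windows that are at least 75% G and C, 50% held GGCGCC and 2.81% held 3 or more. RefSeq windows were matched for 7 of the 10 members, and BMP2, BMP7 and NOG were not matched. Of these 7, 4 held GGCGCC, 4 held CAGAC and 3 held both, so the motifs were not particular to BAMBI. GREM1 held 2 matches to each motif, BMP4 held 1 to each and CHRD held 1 to GGCGCC. The BMP4 window, from 53955051 to 53955300, lies inside the gene's span in the authors' table. These matches describe letters only, and binding was not measured.

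BMP7 was the dominant ligand in all 3 populations, and the ligands differed in how they varied. BMP7, which takes part in kidney and Müllerian epithelial development, lies on chromosome 20 from 57168753 to 57266641 in the authors' table and stood at 196 TPM in iOVCAR-3-OSKM, 268 TPM in SP and 204 TPM in OVCAR-3. It ranked 751, 548 and 708 among the 20312 measured genes in iOVCAR-3-OSKM, SP and OVCAR-3. Its differences of -0.05 in iOVCAR-3-OSKM/OVCAR-3 and 0.40 in SP/OVCAR-3 did not pass the size rule. In bulk RNA, fewer expressing cells and less RNA per cell cannot be told apart.

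BMP4, on chromosome 14 from 53949736 to 53958761, is a ligand of mesoderm and germ cell induction. It stood at 15.6 TPM in iOVCAR-3-OSKM, 20.2 TPM in SP and 8.11 TPM in OVCAR-3, so OVCAR-3 was the lowest. SP/OVCAR-3 differed by 1.28, which was called higher, and iOVCAR-3-OSKM/OVCAR-3 by 0.92, just short of the rule. BMP4 was the only member called in SP/OVCAR-3, and 1.6% of all measured genes had a larger difference there.

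BMP2, on chromosome 20 from 6767686 to 6780246, is closely related to BMP4 and binds the same receptors. It stood at 8.06 TPM in iOVCAR-3-OSKM and was listed at 0 in SP and OVCAR-3. Its call as higher in iOVCAR-3-OSKM therefore rests on presence against no estimate, and no fold is given. Together the 3 ligands came to 219.9 TPM in iOVCAR-3-OSKM, 288 TPM in SP and 212 TPM in OVCAR-3. BMP7 made up 89.2%, 93.0% and 96.2% of these sums in iOVCAR-3-OSKM, SP and OVCAR-3. BMP2 made up 3.66% of the sum in iOVCAR-3-OSKM.

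**Figure D1:**
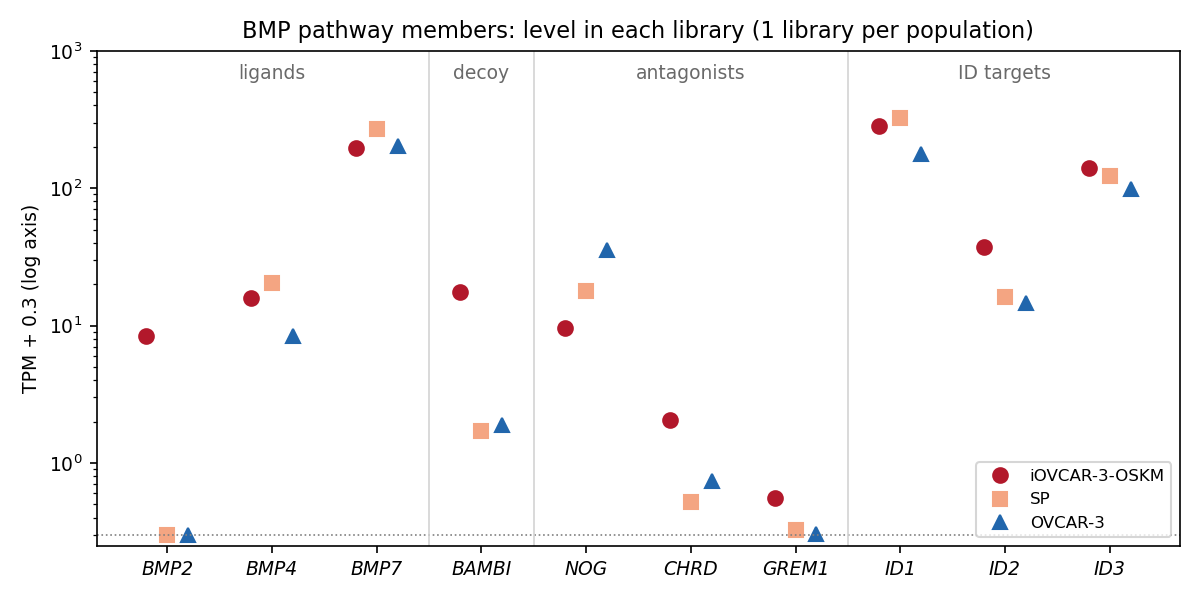
TPM + 0.3 on a log axis for the 10 members, grouped by role, with 1 point for each library and no error bars because each population has 1 library. The dotted line at 0.3 marks a value listed at 0, where BMP2 lies in SP and OVCAR-3, while NOG is lowest in iOVCAR-3-OSKM at 9.36 TPM, with SP at 17.6 TPM and OVCAR-3 at 35.1 TPM.

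BAMBI and NOG, both dampers of the signal, moved in opposite directions in iOVCAR-3-OSKM. BAMBI, which lies on chromosome 10 between 28677510 and 28682932, had 17.2 TPM in iOVCAR-3-OSKM, 1.42 TPM in SP and 1.59 TPM in OVCAR-3. SP and OVCAR-3 were thus near each other and iOVCAR-3-OSKM stood apart. The difference was 3.21 in iOVCAR-3-OSKM/OVCAR-3, a 9.25-fold higher TPM + 0.3, and -0.14 in SP/OVCAR-3. In iOVCAR-3-OSKM/OVCAR-3, 3.34% of all measured genes had a larger difference than BAMBI.

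NOG, on chromosome 17 from 56593699 to 56595611, encodes noggin, which binds BMP2 and BMP4 tightly and BMP7 less so. It was the lowest in iOVCAR-3-OSKM at 9.36 TPM, with 17.6 TPM in SP, and the highest in OVCAR-3 at 35.1 TPM. NOG was the only member called lower in iOVCAR-3-OSKM/OVCAR-3, where it fell by 1.88, and 1.52% of measured genes lay below it. In SP/OVCAR-3 the difference of -0.98 lay just inside the rule and became -1.02, past it, when mitochondrial genome and ribosomal protein genes were left out of the TPM total.

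Chordin and gremlin were low throughout. CHRD, which lies on chromosome 3 between 184380073 and 184390736, had 1.75 TPM in iOVCAR-3-OSKM, 0.220 TPM in SP and 0.434 TPM in OVCAR-3. It was called higher in iOVCAR-3-OSKM/OVCAR-3, with a difference of 1.48 that became 0.94 with log2(TPM + 1) and just under 1, at 0.996, after quantile normalization. THPO, which overlaps CHRD on the opposite strand, was at 0.433 TPM in iOVCAR-3-OSKM and listed at 0 in SP and OVCAR-3, and reads from the pair cannot be told apart unless strand was used in counting, for which no source used here gives an answer. GREM1, which lies on chromosome 15 between 32718004 and 32745106, had 0.259 TPM in iOVCAR-3-OSKM, 0.0235 TPM in SP and 0.00623 TPM in OVCAR-3, too low to compare.

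Summed over NOG, CHRD and GREM1, antagonist transcripts came to 11.4 TPM in iOVCAR-3-OSKM, 17.9 TPM in SP and 35.6 TPM in OVCAR-3. NOG made up 82.3% of this sum in iOVCAR-3-OSKM, 98.6% in SP and 98.8% in OVCAR-3. The order depends on which antagonists are summed. With CER1, an antagonist described with the other modulators, the sum was 21.8 TPM in iOVCAR-3-OSKM, 17.9 TPM in SP and 35.6 TPM in OVCAR-3, lowest in SP. Over all 22 antagonists and modulators listed it was 684 TPM in iOVCAR-3-OSKM, 872 TPM in SP and 841 TPM in OVCAR-3.

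**Figure D2:**
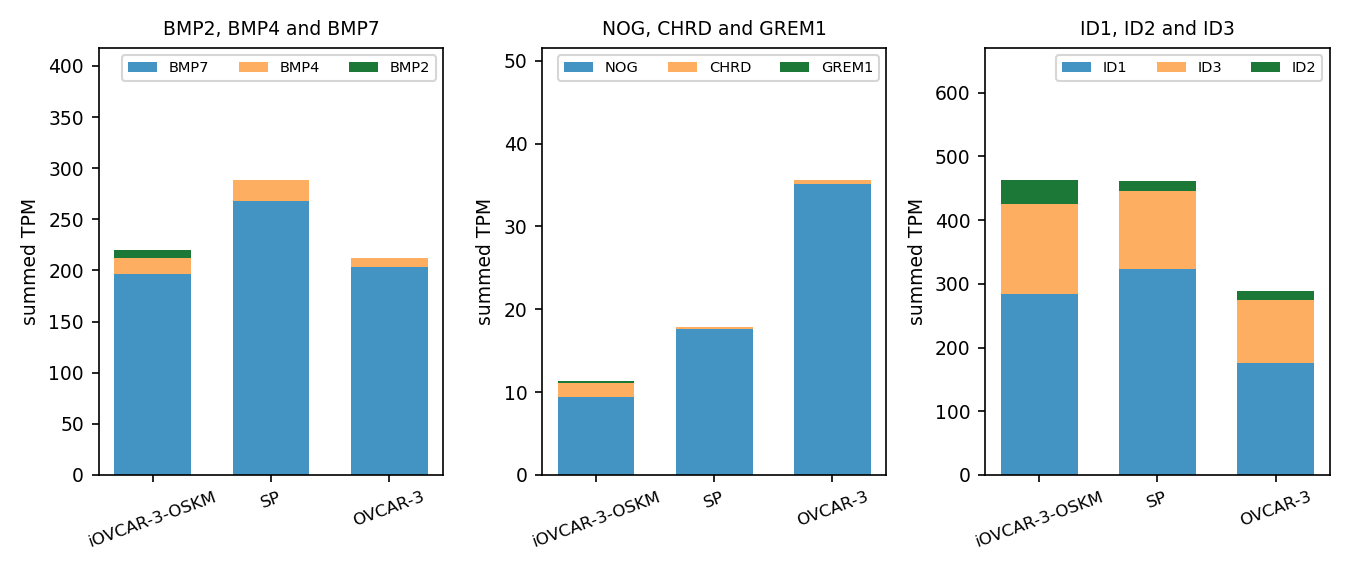
Stacked bars of TPM summed over the 3 ligands, the 3 secreted antagonists and the 3 ID genes in each library, with axes from 0 and a separate scale for each panel. BMP7 fills most of each ligand bar, the antagonist bar is lowest in iOVCAR-3-OSKM at 11.4 TPM, and the ID bars of iOVCAR-3-OSKM and SP are nearly level at 463 and 462 TPM, above OVCAR-3 at 289 TPM.

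All 3 ID genes had their lowest level in OVCAR-3, but only ID2 passed the size rule. ID1, on chromosome 20 from 31605283 to 31606515, an inhibitor of E protein transcription factors linked to proliferation, stood at 285 TPM in iOVCAR-3-OSKM, 323 TPM in SP and 176 TPM in OVCAR-3. Its differences were 0.69 in iOVCAR-3-OSKM/OVCAR-3 and 0.88 in SP/OVCAR-3, where 4% of measured genes had a larger one. After median ratio scaling the SP/OVCAR-3 difference was 1.02, past the rule. ID3, on chromosome 1 from 23557926 to 23559501, a close relative of ID1, stood at 141 TPM in iOVCAR-3-OSKM, 123 TPM in SP and 98.7 TPM in OVCAR-3. Its differences of 0.51 in iOVCAR-3-OSKM/OVCAR-3 and 0.32 in SP/OVCAR-3 were not called.

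ID2, on chromosome 2 from 8678845 to 8684461, is the ID protein also known for binding RB. It stood at 37.1 TPM in iOVCAR-3-OSKM, 15.8 TPM in SP and 14.3 TPM in OVCAR-3. Here SP and OVCAR-3 were alike in level and iOVCAR-3-OSKM stood apart, as for BAMBI. The difference in iOVCAR-3-OSKM/OVCAR-3 was 1.36 and lay between 1.32 and 1.41 under every alternative that gave a value. ID2-AS1, which overlaps ID2 on the opposite strand, stood at 1.42 TPM in iOVCAR-3-OSKM, 1.12 TPM in SP and 1.69 TPM in OVCAR-3.

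Between iOVCAR-3-OSKM and SP, ID2 was the only ID member called, at 1.21, and this call was lost after quantile normalization, at 0.97. ID1 differed by -0.18 and ID3 by 0.19 there, where the median of all genes was 0.19. ID2 made up 8.01% of the sum of the 3 in iOVCAR-3-OSKM, 3.43% in SP and 4.95% in OVCAR-3. Immediate early genes, which some stimuli and cell handling induce, were also higher than in OVCAR-3 in both other populations. Of 14 such genes, all measured, 13 were higher in iOVCAR-3-OSKM/OVCAR-3 and 13 in SP/OVCAR-3, against 15.9% and 3.03% of all genes. Their medians were 3.13 and 2.34. In iOVCAR-3-OSKM/SP their median was 0.78, with 1 called higher, while ID1 differed by -0.18. The part of these genes in the ID1 level was not tested.

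Set against all genes, the members called in iOVCAR-3-OSKM/OVCAR-3 were BMP2, ID2, BAMBI and CHRD, which were higher, and NOG, which was lower. Of all 20312 measured genes, 15.9% were called higher and 8.74% lower in that comparison. In SP/OVCAR-3, BMP4 alone was called higher and 0 members were called lower, against 3.03% and 12.8% of all genes. In iOVCAR-3-OSKM/SP, which uses the same iOVCAR-3-OSKM library, the 4 members higher were again BMP2, ID2, BAMBI and CHRD and 0 were lower, against 19.4% and 2.52% of all genes. BAMBI differed by 3.35, CHRD by 1.98 and ID2 by 1.21 there, and NOG by -0.89, and ID2 lost its call and NOG gained one after quantile normalization, at 0.97 and -1.28.

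The share of genes called depends on their level. Among the 1688 genes averaging 100 TPM or more, the range of BMP7, ID1 and ID3, iOVCAR-3-OSKM/OVCAR-3 called 3.61% higher and 3.38% lower. In the 8051 genes between 10 and 100 TPM, where BMP4, ID2 and NOG lie, these shares were 6.38% and 6.12%. For the 6650 genes between 1 and 10 TPM, which include BAMBI and BMP2, the shares were 22.9% and 10.8%, and for the 3923 genes under 1 TPM, which include CHRD, they were 28.8% and 12.9%. The calls of ID2 and NOG were thus made at a level where fewer genes passed the rule than at the levels of BAMBI, BMP2 and CHRD.

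**Figure D3:**
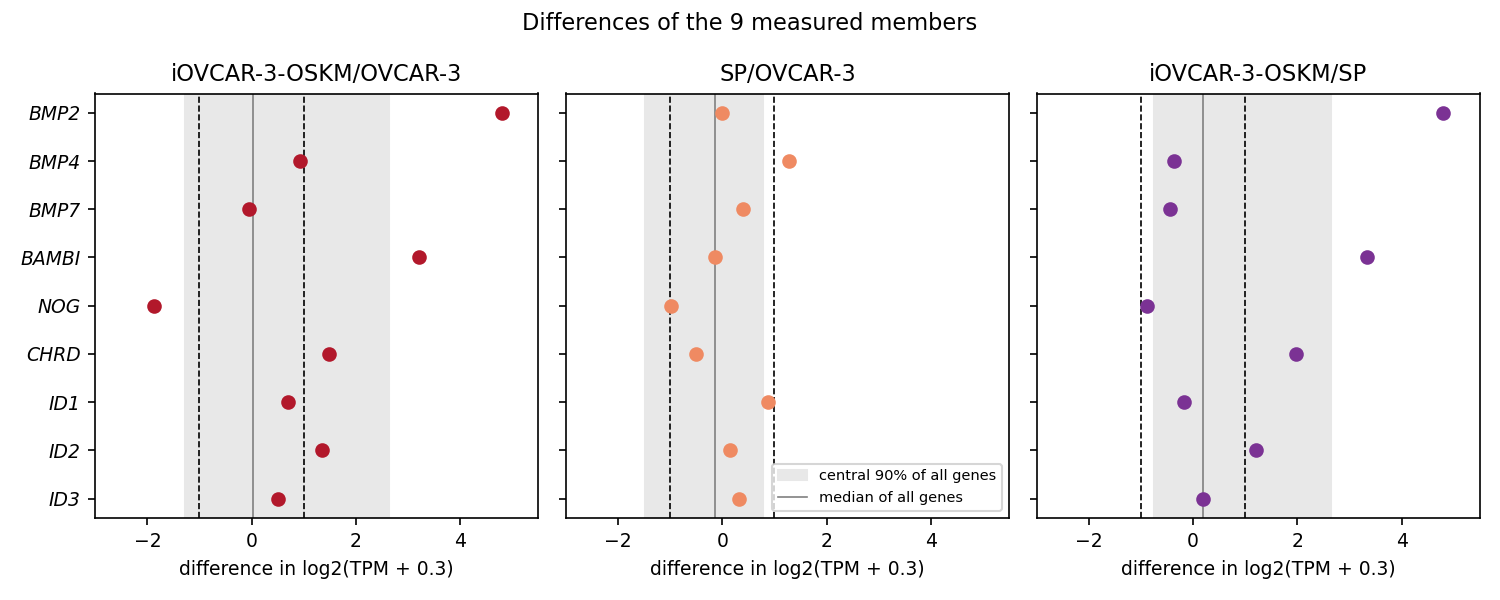
Differences in log2(TPM + 0.3) of the 9 measured members in the 3 comparisons, with dashed lines at the size rule of 1, a grey band over the central 90% of all measured genes and a grey line at their median. BAMBI at 3.21 and NOG at -1.88 lie outside the band in iOVCAR-3-OSKM/OVCAR-3, as does BMP4 at 1.28 in SP/OVCAR-3, and the position of BMP2 depends on the added 0.3 because it was listed at 0 in SP and OVCAR-3.

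Transcript GC content went with the differences from OVCAR-3 of both populations, so it is given beside them. Measured protein-coding genes were split into terciles of GC content. In iOVCAR-3-OSKM/OVCAR-3 the median difference was -0.22 in the lowest tercile, 0.13 in the middle one and 0.22 in the highest. In the lowest tercile the median difference in SP/OVCAR-3 was -0.54, against 0.01 in the middle tercile and 0.05 in the highest. Of the 10 members, 0 lay in the lowest tercile, 5 in the middle one and 5 in the highest. NOG, with 59.5% G and C, lay in the highest tercile and so did ID1, with 58.1%, while BMP4, with 54.0%, lay in the middle tercile. The part of GC content in the members' differences was not tested.

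The other genes of the pathway, from lists drawn up by role, were mostly not called. Of 16 other BMP and GDF ligands, 6 were measured, of which iOVCAR-3-OSKM/OVCAR-3 called 2 higher and 0 lower, where 15.9% and 8.74% of all genes were called. The median was 0.49 against 0.02 over all measured genes. The 2 called higher became 1 with at least 0.3 TPM in both libraries, and 4 with no filter on low values. GDF3, a ligand of pluripotent cells, stood at 3.97 TPM in iOVCAR-3-OSKM and was listed at 0 in SP and OVCAR-3. It was thus measured only through iOVCAR-3-OSKM and could only be called higher there. BMP6, known for the control of iron uptake through hepcidin, stood at 3.60 TPM in iOVCAR-3-OSKM, 2.24 TPM in SP and 1.41 TPM in OVCAR-3, and its iOVCAR-3-OSKM/OVCAR-3 difference of 1.19 lost the call with log2(TPM + 1), at 0.93, and after quantile normalization, at 0.78. GDF11, the highest of these 6 in each library, stood at 21.5 TPM in iOVCAR-3-OSKM, 19.2 TPM in SP and 17.5 TPM in OVCAR-3. AMH, the anti-Müllerian hormone, stood at 15.5 TPM in iOVCAR-3-OSKM, 5.82 TPM in SP and 9.51 TPM in OVCAR-3, and was called higher only in iOVCAR-3-OSKM/SP, at 1.37, or 0.92 and not called after quantile normalization. With all 19 ligands summed, BMP7 still made up 73.1% in iOVCAR-3-OSKM, 84.2% in SP and 83.7% in OVCAR-3.

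Most receptors were not called, like most measured genes, and those called went both ways. Of 12 measured receptors and co-receptors, iOVCAR-3-OSKM/OVCAR-3 called 4 higher and 1 lower, with a median of 0.08, where 15.9% and 8.74% of all genes were called. In SP/OVCAR-3, 1 was higher and 1 was lower, against 3.03% and 12.8% of all genes. The median there was -0.56 against -0.14 over all genes. RGMA, a membrane-anchored BMP co-receptor, stood at 25.0 TPM in iOVCAR-3-OSKM, 0.0631 TPM in SP and 0.0559 TPM in OVCAR-3. ACVR2B, a type II receptor that activins also use, stood at 18.9 TPM in iOVCAR-3-OSKM, 3.99 TPM in SP and 5.77 TPM in OVCAR-3. ENG, endoglin, a co-receptor best known from endothelium, stood at 16.4 TPM in iOVCAR-3-OSKM, 8.73 TPM in SP and 3.11 TPM in OVCAR-3, with differences from OVCAR-3 of 2.30 in iOVCAR-3-OSKM and 1.41 in SP. AMHR2, the receptor of AMH, was the fourth gene called higher in iOVCAR-3-OSKM, at only 0.780 TPM, and its difference of 1.85 became 0.83 with log2(TPM + 1). RGMA and AMHR2 were measured only through iOVCAR-3-OSKM, and the 4 genes called higher became 2 with at least 0.3 TPM in both libraries.

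Among the type I receptors, BMPR1B was called lower in iOVCAR-3-OSKM/OVCAR-3, with 2.42 TPM in iOVCAR-3-OSKM, 3.87 TPM in SP and 7.61 TPM in OVCAR-3. BMPR1A, at 27.4 TPM in iOVCAR-3-OSKM, 14.0 TPM in SP and 21.7 TPM in OVCAR-3, was not called against OVCAR-3. ACVR1 was nearly level, at 19.6 TPM in iOVCAR-3-OSKM, 20.7 TPM in SP and 18.8 TPM in OVCAR-3. The type II receptor BMPR2 stood at 9.47 TPM in iOVCAR-3-OSKM, 9.66 TPM in SP and 16.2 TPM in OVCAR-3. ACVR2A stood at 5.62 TPM in iOVCAR-3-OSKM, 4.38 TPM in SP and 9.20 TPM in OVCAR-3 and was called lower in SP/OVCAR-3, at -1.02, a call lost with log2(TPM + 1) at -0.92, median ratio scaling at -0.89 and quantile normalization at -0.60. BMPR1A, BMPR1B, BMPR2 and ACVR2A all belonged to the lowest GC tercile, which had the lowest median in both comparisons with OVCAR-3, and the part of GC content in their differences was not tested. Of the remaining co-receptors, NEO1, which binds RGM proteins, stood at 67.7 TPM in iOVCAR-3-OSKM, 59.4 TPM in SP and 63.2 TPM in OVCAR-3. RGMB, a relative of RGMA, was lowest in SP, with 24.8 TPM in iOVCAR-3-OSKM, 19.4 TPM in SP and 35.9 TPM in OVCAR-3. TGFBR3, betaglycan, stood at 8.47 TPM in iOVCAR-3-OSKM, 8.27 TPM in SP and 13.0 TPM in OVCAR-3.

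Most SMADs and their regulators were not called, like most measured genes. Of 14 SMADs and regulators, all at 0.3 TPM or more in every library, iOVCAR-3-OSKM/OVCAR-3 called 1 higher and 0 lower, and SP/OVCAR-3 called 0 higher and 2 lower. Over all genes these shares were 15.9% and 8.74% in iOVCAR-3-OSKM/OVCAR-3, and 3.03% and 12.8% in SP/OVCAR-3. The inhibitory SMADs, which are BMP targets and feed back on the receptors, were nearly level, with SMAD6 at 23.6 TPM in iOVCAR-3-OSKM, 29.7 TPM in SP and 22.9 TPM in OVCAR-3. SMAD7 stood at 20.3 TPM in iOVCAR-3-OSKM, 22.2 TPM in SP and 21.0 TPM in OVCAR-3. SMAD1 stood at 18.8 TPM in iOVCAR-3-OSKM, 21.3 TPM in SP and 30.8 TPM in OVCAR-3, a difference of -0.70 in iOVCAR-3-OSKM/OVCAR-3.

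The genes called among the SMADs and regulators were ZNF423, SMAD5 and SKIL. ZNF423, a zinc finger partner of SMAD1, stood at 19.8 TPM in iOVCAR-3-OSKM, 0.569 TPM in SP and 1.18 TPM in OVCAR-3, a difference of 3.76 in iOVCAR-3-OSKM/OVCAR-3. SMAD5 stood at 17.1 TPM in iOVCAR-3-OSKM, 6.64 TPM in SP and 17.5 TPM in OVCAR-3, and SP/OVCAR-3 differed by -1.36, or -0.96 after quantile normalization, which ended the call. SKIL, a SMAD co-repressor, stood at 34.7 TPM in iOVCAR-3-OSKM, 18.7 TPM in SP and 62.6 TPM in OVCAR-3, and SP/OVCAR-3 differed by -1.73. By GC content, SMAD5 and SKIL belonged to the lowest tercile. SMAD4, the partner of all receptor-activated SMADs, stood at 33.0 TPM in iOVCAR-3-OSKM, 13.1 TPM in SP and 17.8 TPM in OVCAR-3, with differences of 0.88 in iOVCAR-3-OSKM/OVCAR-3, which was not called, and 1.31 in iOVCAR-3-OSKM/SP, which was.

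Other secreted modulators also included genes near 0 outside iOVCAR-3-OSKM. Of 14 measured, iOVCAR-3-OSKM/OVCAR-3 called 3 higher and 1 lower, where 15.9% and 8.74% of all genes were called. In SP/OVCAR-3, 0 were lower, against 12.8% of all genes, and 1 was higher, against 3.03%, a count that became 3 after median ratio scaling and after quantile normalization. CER1, Cerberus, an antagonist of BMP and Nodal ligands, stood at 10.4 TPM in iOVCAR-3-OSKM and was listed at 0 in SP and OVCAR-3. BMPER and KCP, chordin-like modulators, reached 2.31 and 2.71 TPM in iOVCAR-3-OSKM, with less than 0.3 TPM in SP and in OVCAR-3. CER1, BMPER and KCP were thus measured only through iOVCAR-3-OSKM, and with at least 0.3 TPM in both libraries 0 modulators were called higher. TWSG1, which helps chordin bind BMPs, was called lower, with 22.8 TPM in iOVCAR-3-OSKM, 31.9 TPM in SP and 62.7 TPM in OVCAR-3. NBL1, a member of the DAN antagonist family, was called higher in SP/OVCAR-3, at 1.12, with 114 TPM in iOVCAR-3-OSKM, 232 TPM in SP and 106 TPM in OVCAR-3. FST, follistatin, which binds activins and some BMPs, was not called and stood at 103.5 TPM in iOVCAR-3-OSKM, 96.0 TPM in SP and 134 TPM in OVCAR-3.

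**Figure D4:**
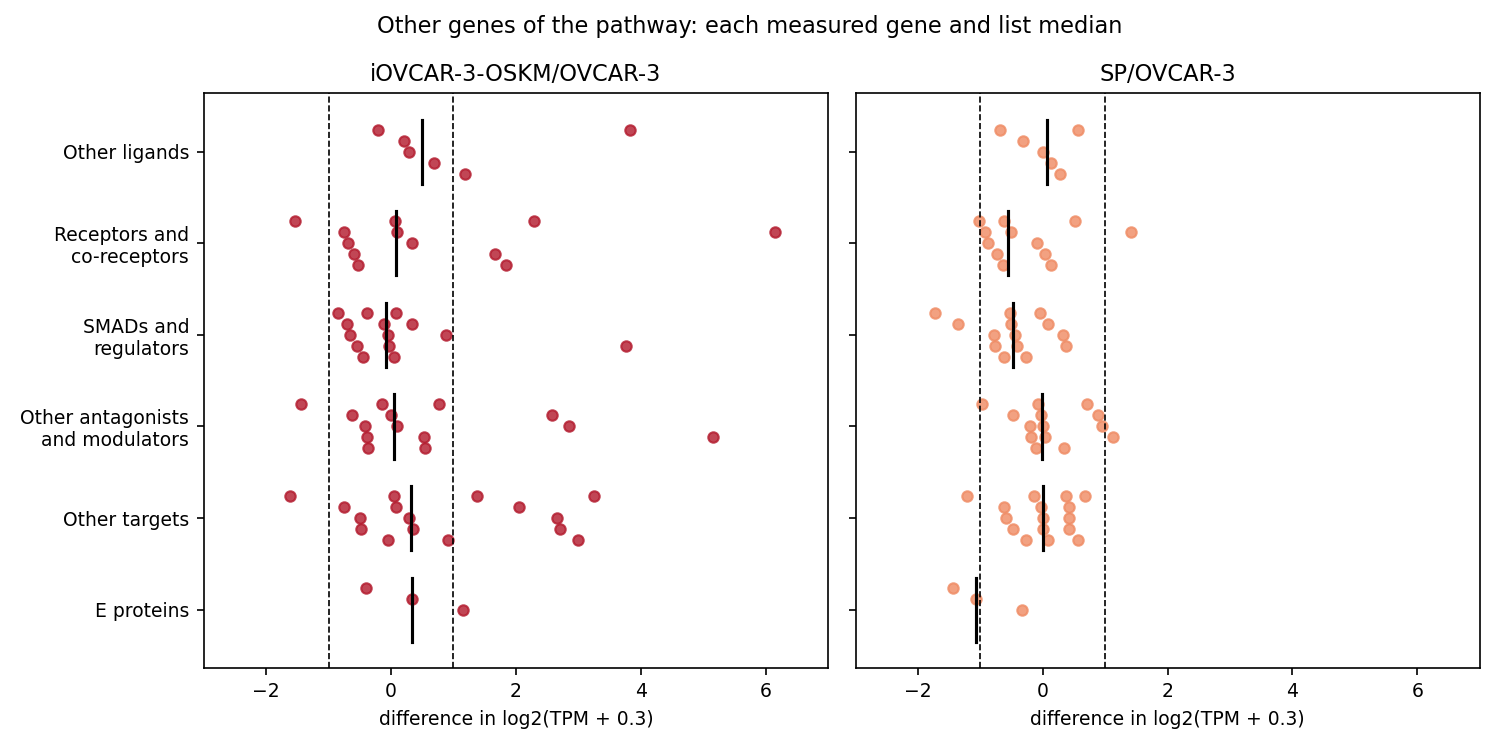
Differences in log2(TPM + 0.3) of the measured genes of 6 other lists of the pathway, 1 point for each gene, with a black bar at each list's median and dashed lines at the size rule of 1. In iOVCAR-3-OSKM/OVCAR-3 single genes such as RGMA, CER1 and ZNF423 lie far to the right while the medians lie between -0.08 and 0.49, and in SP/OVCAR-3 the E proteins have the lowest median, at -1.07. SMAD6, SMAD7 and SMAD9 are in the lists of both SMADs and targets, and values of genes listed at 0 in OVCAR-3 depend on the added 0.3.

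Of 16 measured other BMP target genes, iOVCAR-3-OSKM/OVCAR-3 called 6 higher and 1 lower, with a median of 0.32, where 15.9% and 8.74% of all genes were called. In SP/OVCAR-3, 0 were higher and 1 was lower, against 3.03% and 12.8% of all genes, with a median of 0. ID4, the remaining ID gene, followed ID2, with 11.9 TPM in iOVCAR-3-OSKM, 3.58 TPM in SP and 4.38 TPM in OVCAR-3, a difference of 1.38 in iOVCAR-3-OSKM/OVCAR-3. The other genes called higher, MSX1, MSX2, GATA3, TBX3 and HAND1, reached at most 2.55 TPM in iOVCAR-3-OSKM and were measured only through that library, with less than 0.3 TPM in SP and OVCAR-3. The count of 6 became 1 when a mean of 1 TPM or 0.3 TPM in both libraries was required. UNC5B, a netrin receptor, stood at 11.7 TPM in iOVCAR-3-OSKM, 3.91 TPM in SP and 6.06 TPM in OVCAR-3, and was called in iOVCAR-3-OSKM/SP alone, at 1.51, or 0.97 and not called after quantile normalization. RUNX2, a bone transcription factor, was called lower against OVCAR-3 in both, with 1.15 TPM in iOVCAR-3-OSKM, 1.63 TPM in SP and 4.17 TPM in OVCAR-3, and these comparisons share the OVCAR-3 library. Its SP/OVCAR-3 difference of -1.21 lost the call with log2(TPM + 1), at -0.97, and after quantile normalization, at -0.81.

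E proteins, the partners that ID proteins bind, were measured as TCF3, TCF4 and TCF12. TCF3 stood at 169 TPM in iOVCAR-3-OSKM, 106 TPM in SP and 133 TPM in OVCAR-3 and was not called. TCF4 was called in both directions, with 17.6 TPM in iOVCAR-3-OSKM, 3.51 TPM in SP and 7.71 TPM in OVCAR-3, differences of 1.16 in iOVCAR-3-OSKM/OVCAR-3 and -1.07 in SP/OVCAR-3. The SP/OVCAR-3 call was lost with log2(TPM + 1) at -0.95, median ratio scaling at -0.94 and quantile normalization at -0.63. TCF12 was lower in SP, with 34.5 TPM in iOVCAR-3-OSKM, 16.7 TPM in SP and 45.6 TPM in OVCAR-3, and belonged to the lowest GC tercile, while TCF4 belonged to the middle one.

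Markers of other cells differed by list between iOVCAR-3-OSKM and OVCAR-3. The only fibroblasts described for these cultures are the mouse feeder cells of iOVCAR-3-OSKM, while the values are of human genes. Whether mouse reads were counted for human genes was not tested. Of 10 measured fibroblast markers, iOVCAR-3-OSKM/OVCAR-3 called 7 higher and 1 lower, where 15.9% and 8.74% of all genes were called. COL1A2, COL3A1, LUM, PDGFRA, PDGFRB and THY1, all among the 7, were measured only through iOVCAR-3-OSKM, with less than 0.3 TPM in SP and OVCAR-3. The list of 12 summed to 468 TPM in iOVCAR-3-OSKM, 334 TPM in SP and 242 TPM in OVCAR-3, most of it S100A4. THY1, a fibroblast and pluripotent cell surface protein, stood at 31.3 TPM in iOVCAR-3-OSKM, 0.22 TPM in SP and 0.0203 TPM in OVCAR-3. The collagen gene COL1A1 stood at 28.4 TPM in iOVCAR-3-OSKM, 8.23 TPM in SP and 8.43 TPM in OVCAR-3. COL1A2 stood at 19.0 TPM in iOVCAR-3-OSKM, was listed at 0 in SP and stood at 0.0202 TPM in OVCAR-3, and COL3A1 reached 3.87 TPM in iOVCAR-3-OSKM, 0.0287 TPM in SP and was listed at 0 in OVCAR-3. DCN, abundant in fibroblasts, was at 0.0769 TPM in iOVCAR-3-OSKM and listed at 0 in SP and OVCAR-3. FAP, the 1 called lower, stood at 0.167 TPM in iOVCAR-3-OSKM, 0.585 TPM in SP and 0.765 TPM in OVCAR-3. TWIST1, which was not called, stood at 14.3 TPM in iOVCAR-3-OSKM, 22.5 TPM in SP and 18.2 TPM in OVCAR-3. All 10 pluripotent cell markers were higher in iOVCAR-3-OSKM/OVCAR-3, with a median of 7.56. Only 3 of them, POU5F1, SALL4 and DNMT3B, reached 0.3 TPM in every library. The others were measured only through iOVCAR-3-OSKM, so they could only be called higher, and the size of their differences depends on the added 0.3. Of 7 measured trophoblast and amnion markers, 1, HAND1, was higher and 0 were lower, with a median of -0.04. The list of 10 summed to 383 TPM in iOVCAR-3-OSKM, 595 TPM in SP and 478 TPM in OVCAR-3. CGA, a trophoblast hormone subunit, was listed at 0 in all 3 libraries. The part of these cell types in the levels of BMP2, BAMBI, CHRD and ID2 was not tested.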

How the data were processed

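Expression of 3 populations was analysed, with 1 RNA-seq library each. The authors deposited gene-level TPM. The submitters' processing notes name bcl2fastq (2.20), Trimmomatic (0.36) and HISAT2, and the study's methods name StringTie and an mRNA library kit. The genome build and annotation are not given in the sources used here. Gene positions are as deposited, and 3 of the 10 members' positions equal those of GENCODE release 29 (GRCh38), whose transcripts supplied GC content. TPM carries no depth, so no count test or counting interval was possible.

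Values of 0.0001 were read as listed at 0. A repeated gene name was represented by its entry with the highest mean TPM. Differences in log2(TPM + 0.3) were taken over 20312 gene names with a mean of at least 0.3 TPM, and called past 1 in size, with 2 as an alternative, since the study's text gives both as log2 thresholds. Alternatives covered the pseudocount (0.1 and 1), the filter, median ratio scaling, quantile normalization, removal of mitochondrial genome and ribosomal protein genes, the higher threshold and summed entries. The members and lists were chosen with earlier results of these data known. All members are named, and from the other lists genes past the rule that reach 5 TPM in a library, with receptors and SMADs at that level; GDF3, BMP6, AMHR2, BMPER, KCP, FST, GDF11, TCF3, RUNX2 and the low target genes were named after their values were seen. The calculation was tested on simulated data. Calculations ran in Python 3.11.15 with pandas 2.3.3 and numpy 2.4.6, and plots in matplotlib 3.10.9.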

Additional observations from a re-analysis of the deposited data

How the results depend on the processing

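Of 235 differences of single members recomputed under the alternatives, 229 moved by under 0.58 on the log2 scale, 6 moved by more and 0 of the called ones turned round. The 4 members higher in iOVCAR-3-OSKM/OVCAR-3 and the 4 in iOVCAR-3-OSKM/SP became 2 and 2 at a log2 threshold of 2, BMP2 and BAMBI in each, while the members lower in iOVCAR-3-OSKM/OVCAR-3 and higher in SP/OVCAR-3 became 0 and 0. Median ratio scaling gave 2 members higher in SP/OVCAR-3, BMP4 and ID1. Rescaling without genes of ribosomal proteins and the mitochondrial genome gave 1 member lower in SP/OVCAR-3, and quantile normalization gave 1 lower in iOVCAR-3-OSKM/SP, NOG in each. Quantile normalization also ended the call of ID2 in iOVCAR-3-OSKM/SP, at 0.97. With at least 0.3 TPM required in both libraries, 2 members were higher in iOVCAR-3-OSKM/SP, ID2 and BAMBI, because BMP2 and CHRD were under the minimum in SP. Quantile normalization moved the median of all genes by -0.14 in iOVCAR-3-OSKM/OVCAR-3, 0.17 in SP/OVCAR-3 and -0.34 in iOVCAR-3-OSKM/SP, and median ratio scaling moved it by 0.13 in SP/OVCAR-3. Of 360 counts of the other pathway lists, 54 changed by more than 1.5 times or went to or from 0. TPM keeps no depth, so the precision of low genes such as CHRD and GREM1 is unknown. No paired analysis was possible because each population had 1 library.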
